A study of Mus musculus with 26 samples.

Results

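Over-expression of QKItr was compared with over-expression of eGFP in mouse neural stem cells, on 9 of the 26 arrays of the series: 3 with QKItr, from pools 1, 2 and 3, and 6 with eGFP, 2 repeats from each of the same pools. All cells of both groups were neural stem cells taken from E14.5 embryos of wild-type C57BL6 mice, and both groups received their transgene by lentivirus. eGFP is a green fluorescent protein and served as the control. The labels name the other construct QKItr without saying what tr stands for, which piece of QKI it carries or from which species, and they do not say whether a pool is a separate litter, animal or culture. The same pools also carried MYBtr, MYBQKI5 or MYBQKI6, on 9 further arrays, which are used here for scale. The 2 eGFP repeats of a pool were averaged, and each QKItr array was compared with the eGFP mean of its own pool.

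QKI, encoded in the mouse by Qk, belongs to the STAR family of RNA-binding proteins, which carry a single KH domain and a flanking region and bind short sequence elements in RNA. Its splice forms act in alternative splicing, in the stability, export and translation of mRNAs and in the formation of circular RNAs. In the brain it is best known for glia: the quaking mouse, which lacks Qk forms in oligodendrocytes, fails to make normal myelin. In neural stem cells, Qk has also been tied to the supply of endosomal and lysosomal proteins. MYB is a transcription factor, and MYB-QKI fusions occur in angiocentric glioma. The comparison concerns cells given a QKI construct without MYB.

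No gene was called different between QKItr and eGFP. Of 23141 genes tested, 0 (0%) passed a Benjamini-Hochberg adjusted p under 0.05 in limma, in either direction, and the lowest adjusted p was 0.99. At an unadjusted p under 0.05 there were 1064 genes (4.6%), 509 higher (2.2%) and 555 lower (2.4%) with QKItr. The same fit, on the same pools and the same eGFP arrays, called 1382 genes (5.97%) with MYBtr, 609 (2.63%) with MYBQKI5 and 1014 (4.38%) with MYBQKI6. Set directly against the MYB constructs, with no eGFP array in the comparison, QKItr differed in 2057 genes (8.89%) from MYBtr, in 840 (3.63%) from MYBQKI5 and in 1524 (6.59%) from MYBQKI6. With pool as a term of the fit, p-values measure how differences between constructs vary over these 3 pools. That spread was estimated from all 5 constructs and may be technical.

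The arrays behind these counts were alike in brightness: the medians of the 18 pool arrays ran from 5.61 to 5.74 on the log2 scale of the deposited values. The cells carried most markers of their label, along with some of other neural types. Of 23 measured neural stem cell markers, 21 had a mean signal above the median gene, among them Sox2 and Fabp7, while Prom1 and Hopx did not. Of other cell types, 3 of 17 markers of myelinating oligodendrocytes, 2 of 17 of microglia and immune cells and 5 of 19 of vascular cells and fibroblasts lay above it. The corresponding counts were 13 of 17 for astrocytes, 8 of 14 for oligodendrocyte precursors and 9 of 21 for neurons. In bulk RNA, fewer cells of a type and less RNA per cell cannot be told apart. Arrays of one pool were alike whatever the construct. After group means were removed, QKItr correlated with eGFP of its own pool at 0.44 to 0.72 and with eGFP of the other pools at -0.65 to 0.04. With group means taken over only 3 pools, positive same-pool values push the other-pool values below 0. The gap between the 2 ranges is thus partly arithmetic.

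The differences were small as well as uncalled. The median absolute difference between QKItr and eGFP was 0.10 on the log2 scale, with a median standard error of 0.14. For each gene, the far end of the 95% confidence interval of the difference is here called its bound. It is not a maximum, since some 95% intervals are expected to miss the true difference. Its width rests on the spread over all 5 constructs and on the mean of a gene's probe sets. The median bound was 1.33-fold, the 95th percentile was 1.65-fold and the 99th 1.98-fold. The whole interval lay within 2-fold for 22924 genes (99.1%), within 1.5-fold for 19919 (86.1%) and within 0.32 log2 units, the narrowest limit used, for 4441 (19.2%). With MYBtr, the 2-fold limits held 21937 genes (94.8%). Conversely, the interval lay wholly beyond 0.32 log2 units for 3 genes higher (0.013%) and 5 lower (0.0216%) with QKItr, against 542 (2.34%) and 376 (1.62%) with MYBtr. The 3 were Krtap19-9b, Prp2 and Gm10377, each read by 1 probe set, and the 5 were Ccnyl1, Rex2, Fhl5, Klrb1a and Snord1b. Prp2, Gm10377 and Snord1b were singled out after their values were seen.

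**Figure D1:**
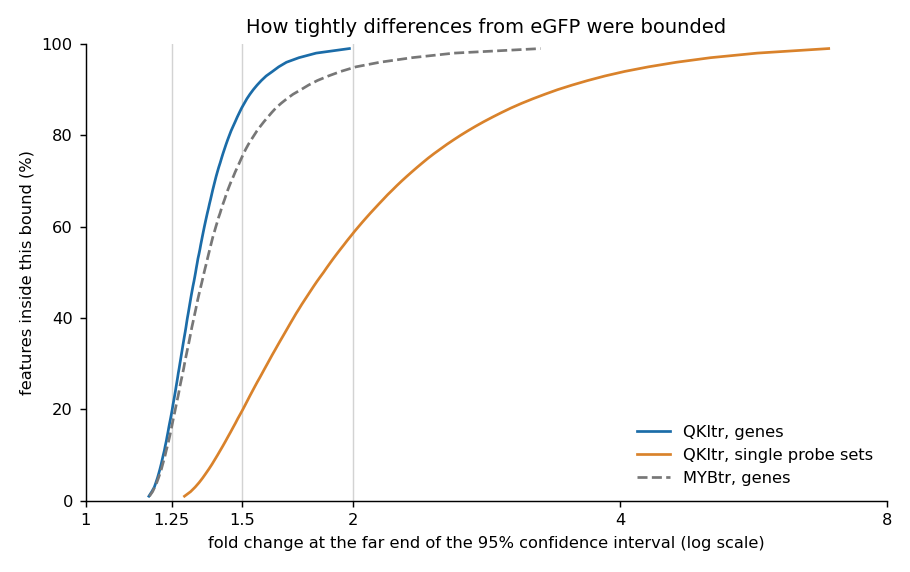
Share of features (y axis, percent) whose difference from eGFP is bounded within a given fold change (x axis, log scale; the fold change at the far end of the 95% confidence interval), for QKItr genes, QKItr single probe sets and MYBtr genes. The QKItr gene curve passes 99.1% at 2-fold and lies above the MYBtr curve, and the curve of single probe sets reaches 58.5% there.

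Bounds were tighter for bright genes. In the brightest quartile of genes the median bound was 1.29-fold, and in the dimmest it was 1.35-fold. These are bounds on the mean log2 signal of a gene's probe sets, not on its RNA. With MYBtr, for scale, Myb rose by 2.62 as a gene mean and by 5.14 at its probe set 17232001. Whether dim genes were above background was not tested. In all, 217 genes were not bounded to 2-fold. Of these, 147 had a mean signal under the median and 158 were read by fewer than 4 probe sets. The widest bound, 5.71-fold, belonged to Styx, read by 1 probe set. A single probe set constrains less than a gene. Over 269751 probe sets the median bound was 1.85-fold, and 157784 (58.5%) were held within 2-fold, 52782 (19.6%) within 1.5-fold and 150 (0.0556%) within 0.32 log2 units.

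The differences had little in common between pools. Across the 23141 genes, the difference between QKItr and eGFP in one pool correlated with that in another at 0.07, 0.08 and 0.08 for the 3 pairs of pools. These pairs share no array, and genes are not independent replicates, so the values are a description. For MYBtr the same correlations were 0.54, 0.42 and 0.48. For eGFP repeat R2 minus R1 they were -0.05, -0.02 and -0.19, below the QKItr value in each pair of pools. The direction was the same in 3 of 3 pools for 7271 genes (31.4%). A difference over 1.5-fold in the same direction in 3 of 3 pools was found in 2 genes with QKItr, Xlr4c higher and Rex2 lower, and in 277 higher and 165 lower with MYBtr. The difference between the eGFP repeats themselves gave 1 higher and 1 lower. With eGFP R1 alone as the control, QKItr gave 2 higher and 5 lower.

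**Figure D2:**
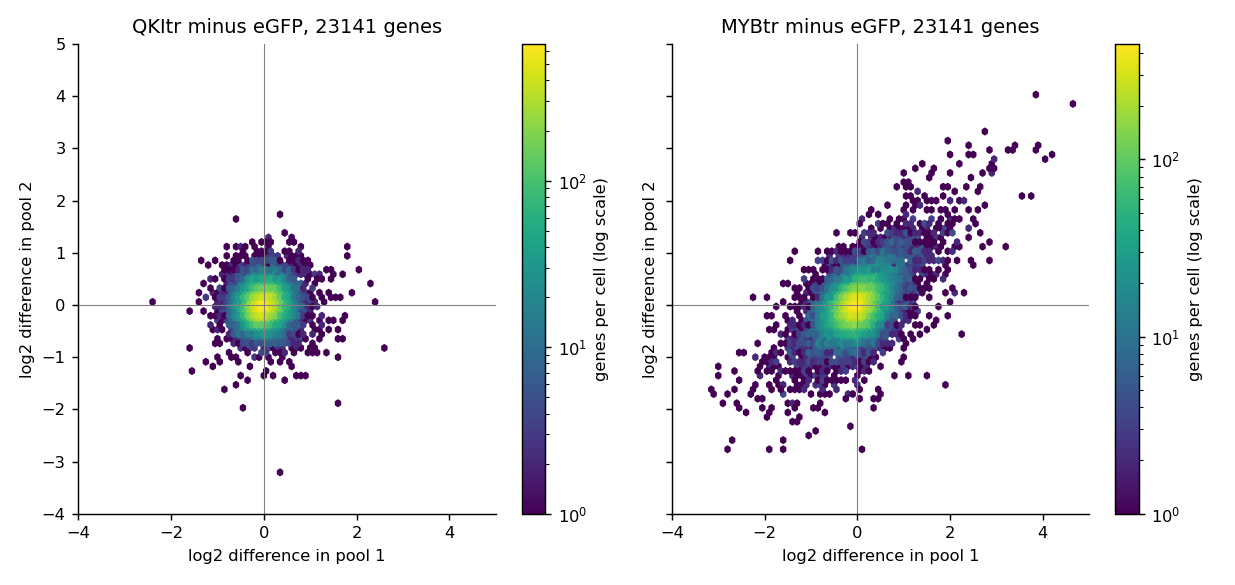
Difference from eGFP in pool 1 (x axis) against the difference in pool 2 (y axis), both log2, for the 23141 genes; the colour gives the number of genes per cell on a log scale. QKItr (left) forms a round cloud with a correlation of 0.07, and MYBtr (right) a slanted one with 0.54.

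The spread of the difference was at or a little above that between repeats. Within a pool, a single QKItr array minus the eGFP array R1 had an SD over genes of 0.30, 0.28 and 0.25 in pools 1, 2 and 3, and minus R2 it had 0.31, 0.29 and 0.29. The eGFP array R2 minus R1 had 0.27, 0.25 and 0.25. The QKItr array minus the mean of both eGFP arrays had 0.28, 0.26 and 0.24, where MYBtr had 0.44, 0.41 and 0.30.

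Qk itself was the first gene to examine, since the construct carries its name. Averaged over its 15 probe sets, Qk read 11.43, 10.98 and 10.69 with QKItr in pools 1, 2 and 3, and 10.53 to 10.99 on the 6 eGFP arrays. Only the pool 1 array lay above all eGFP arrays, and the groups overlapped. The difference was 0.25 (SE 0.16, 95% confidence interval -0.10 to 0.60, n = 3 pools, limma adjusted p = 0.99), with QKItr above its own pool's eGFP in 3 of 3 pools by 0.47, 0.20 and 0.07. An exact two-sided paired permutation test gave p = 0.25, the smallest that 3 pairs allow. Qk was already bright in the control cells, at the 99.7th percentile of all genes. The bound of this mean over 15 probe sets was 1.51-fold. It does not hold for each probe set alone, and it is no bound on the RNA of the transgene.

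One Qk probe set stood apart from the other 14. Probe set 17340760 read 12.69, 12.39 and 11.68 with QKItr in pools 1, 2 and 3 and 10.99 to 11.32 with eGFP, so that the groups did not overlap. Over all probe sets, the 3 QKItr arrays lay above all 6 eGFP arrays in 2406 (0.892%) and below them in 2997 (1.11%). The difference at 17340760 was 1.05 (SE 0.28, interval 0.43 to 1.67, unadjusted p = 0.0035, limma adjusted p = 1.00 over all probe sets), and it was not called. The probe set behaved in the same direction with MYBQKI5, at 0.93 above eGFP (adjusted p = 0.33), but lay below eGFP by -0.23 with MYBQKI6 and -0.26 with MYBtr. QKItr and MYBQKI5 differed there by 0.11 (interval -0.51 to 0.74, adjusted p = 0.93), an interval that spans 0. QKItr exceeded MYBQKI6 by 1.28 (0.66 to 1.90, adjusted p = 0.071) and MYBtr by 1.31 (0.69 to 1.93, adjusted p = 0.053), and neither was called. The probe set was singled out by its QKItr and eGFP values. All these comparisons share arrays by which it was chosen, so they are a description. QKI5 and QKI6 are splice forms of QKI that differ at their C-terminal end.

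The remaining 14 Qk probe sets were all on the same side: differences ran from 0.02 to 0.63 and all 15 were positive. They share a transcript and the same 9 arrays, so they are not separate evidence. In 7 of the 15 the sign was the same in 3 of 3 pools, 12 were bounded within 2-fold and 9 within 1.5-fold. Which of them read the transgene as well as the cells' own Qk was not tested, because the probe sequences were not used here.

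**Figure D3:**
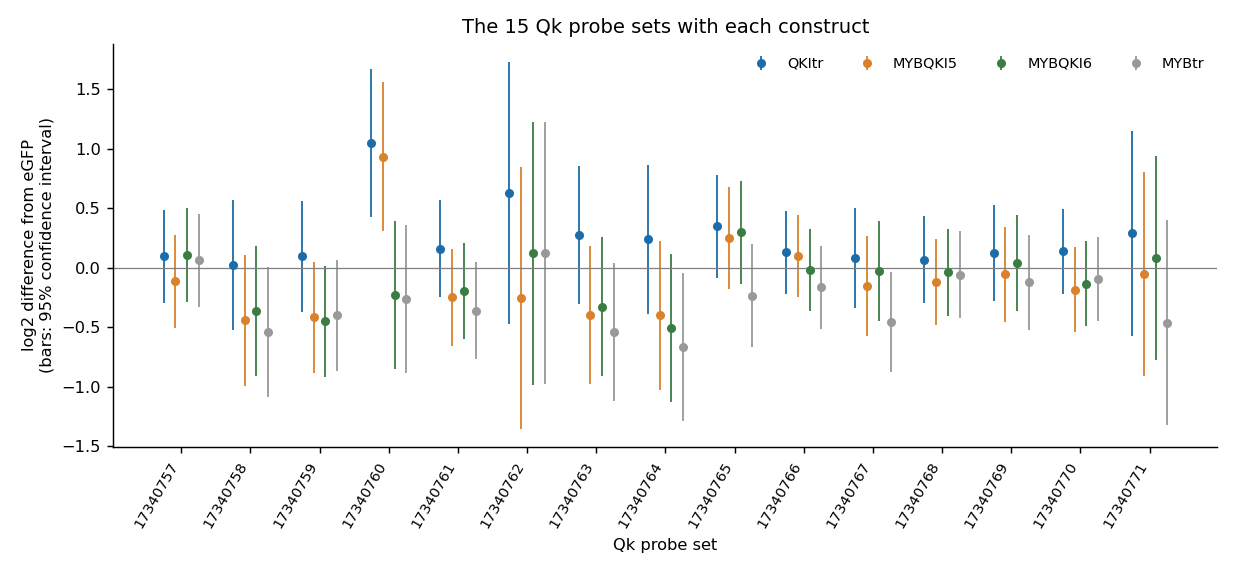
Difference from eGFP (y axis, log2) at each of the 15 Qk probe sets (x axis) with QKItr, MYBQKI5, MYBQKI6 and MYBtr; points are fitted differences over 3 pools and bars are 95% confidence intervals. At 17340760, QKItr and MYBQKI5 stand at 1.05 and 0.93, and the QKItr points of the other 14 probe sets lie between 0.02 and 0.63.

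The other STAR proteins gave no called difference. Sf1, which recognises the branch point in splicing, differed by 0.10 and was bounded to 1.24-fold. Khdrbs1, Khdrbs2 and Khdrbs3, the Sam68 family of splicing regulators, differed by -0.06, -0.12 and -0.10. Of 42 measured Hnrnp, SR and other splicing factors, 0 were called and 16 had a positive sign (11177 of 23141 over all genes). The interval lay within 1.5-fold for 40 of them, against 86.1% of all genes. The median of that list was -0.02 (all genes -0.01). The lowest p belonged to Hnrnpm, at 9.20 with eGFP and 8.89 with QKItr, a difference of -0.32 (unadjusted p = 0.018).

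Genes described as RNA targets of Qk gave no called difference. Of 16 measured, 0 were called, 7 had a positive sign and the median difference was -0.01. The interval lay within 1.5-fold for 15 of them, against 86.1% of all genes. The exception was Add3, a membrane skeleton protein, at 0.28 with a bound of 1.60-fold. Numb, which sets cell fate at division and is spliced by Qk, read 5.91, 5.83 and 6.01 with QKItr and 5.98 to 6.36 with eGFP. Its difference was -0.29 (interval -0.58 to -0.00, unadjusted p = 0.049) and was not called. Macf1, a cytoskeletal linker whose splicing depends on Qk, differed by 0.12 (-0.12 to 0.36), and Capzb, an actin capping subunit, by -0.01 (-0.22 to 0.20). A gene mean does not read exon choice, so these bounds concern total signal.

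Genes of the endosome and lysosome were bounded much as other bright genes were. Of 33 measured, 0 were called, 0 had an unadjusted p under 0.05, 14 had a positive sign and 31 were bounded within 1.5-fold. Of the 33, 30 were in the brightest quartile of genes, where 92.9% lay within that limit. The lowest p belonged to Gla, a lysosomal galactosidase, with a difference of -0.26 (-0.53 to 0.01). Lamp1, a membrane protein of the lysosome, differed by 0.06 (-0.19 to 0.30), and Ctsd, a lysosomal protease, by 0.08 (-0.20 to 0.36).

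Markers of the oligodendrocyte lineage, where Qk acts in the brain, gave no called difference. Among 17 myelinating markers the median was 0.04, 15 were bounded within 1.5-fold (86.1% of all genes), and most were dim in these cells. Mobp, a structural myelin protein, read 5.25, 4.99 and 5.50 with QKItr against 4.75 to 5.11 with eGFP, a difference of 0.34 (unadjusted p = 0.026). Among 14 precursor markers, 5 had a positive sign and the median was -0.02 with QKItr. Lhfpl3 and Pcdh15 differed by 0.39 (-0.09 to 0.87) and 0.31 (-0.17 to 0.79), where MYBtr gave -1.19 and -1.09 and was called. Olig2, a transcription factor of the lineage, differed by -0.28 (-0.61 to 0.04) with QKItr, where MYBtr gave -0.64 and was called. The fit called 7 of the 14 precursor markers with each MYB construct and 0 with QKItr.

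Neural stem cell markers kept a median difference of 0.03, with 0 of 23 called and 23 bounded within 2-fold. Nes, the intermediate filament nestin, was the one marker with an unadjusted p under 0.05. It read 8.85, 8.69 and 9.00 with QKItr in pools 1, 2 and 3 and 9.21 to 9.40 with eGFP, so every QKItr array lay below every eGFP array. That was so for 261 (1.13%) of all genes. The difference was -0.45 (SE 0.18, interval -0.82 to -0.07, unadjusted p = 0.023, limma adjusted p = 0.99). The MYB constructs, which share these eGFP arrays, lay further down at -1.04, -0.96 and -1.11, and were called. Sox2 differed by 0.07 (-0.19 to 0.32) and Vim by 0.03 (-0.17 to 0.24).

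Astrocyte markers had 14 of 17 positive signs and a median of 0.15, with 0 called and 4 at an unadjusted p under 0.05 (Slc4a4, Gjb6, Apoe and Ntsr2). Their list mean stood above eGFP by 0.22, 0.18 and 0.07 in pools 1, 2 and 3. Over all genes, 11177 of 23141 had a positive sign. Members of any list here share the same arrays, so their signs are not independent. Slc4a4, a bicarbonate transporter, differed by 0.45 (0.04 to 0.86), Apoe, a lipid carrier, by 0.29 (0.01 to 0.57), and Gfap, the astrocyte filament, by -0.02 (-0.56 to 0.53). Neuron markers had a median of 0.02. Dcx, a microtubule protein of young neurons, differed by 0.46 (0.05 to 0.87), and its sign turned to -0.14 when the gene was read by its brightest probe set alone. Of microglia and immune markers, Cd68 had the lowest p, at -0.54 (-0.92 to -0.15), while Aif1, Cx3cr1 and P2ry12, which define microglia, differed by -0.15, 0.15 and -0.07. List means of the microglia markers ran from 4.17 to 4.43 on the eGFP arrays and from 4.29 to 4.31 with QKItr. For vascular and fibroblast markers they ran from 4.65 to 4.78 and from 4.71 to 4.78, and Flt1, a receptor for vascular growth factor, differed by 0.34 (0.11 to 0.58).

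Genes of mitosis had mostly positive signs with QKItr, but not in every pool. Of 25 measured genes of G2 and M phase, 24 were positive on average, with a median of 0.17, 0 called and 0 at an unadjusted p under 0.05. The list mean differed from eGFP by -0.03 in pool 1, by 0.35 in pool 2 and by 0.18 in pool 3, and the number of genes above eGFP was 10, 24 and 20 of 25. The pools themselves stood much further apart. On the 6 eGFP arrays the list mean was 4.82 and 4.80 in pool 1, 5.93 and 5.84 in pool 2, and 7.60 and 7.69 in pool 3. Plk1, a mitotic kinase, went from 5.73 to 9.09 over the eGFP arrays, while its difference with QKItr was 0.32 (-0.13 to 0.77). Mki67, the proliferation marker, differed by 0.24 and had the widest bound of the list at 1.81-fold. Genes of S phase had a median of 0.01 and 26 of 27 were bounded within 1.5-fold, against 86.1% of all genes.

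Interferon response genes stood on opposite sides of eGFP in different pools. These genes, which cells switch on after sensing virus or interferon, stood above eGFP in 25 of 27 cases in pool 1, in 0 of 27 in pool 2 and in 6 of 27 in pool 3. The list mean was 6.78 with QKItr against 6.41 and 6.55 with eGFP in pool 1, 6.53 against 7.10 and 6.99 in pool 2, and 5.18 against 5.39 and 5.46 in pool 3. In each pool the QKItr array lay outside both eGFP repeats, above them in pool 1 and below them in pools 2 and 3. Averaged over pools the median difference was -0.14, with 0 called. These genes had the widest bounds of the lists, with a median of 1.75-fold and 19 of 27 within 2-fold. Usp18, which restrains interferon signalling, had a bound of 3.02-fold, and Ifit1, which binds viral RNA, 2.87-fold. All 3 MYB constructs, delivered by lentivirus as well, lay above eGFP in this list with medians of 0.99, 1.15 and 1.23. Of the 27 genes, 11, 9 and 13 were called, against 5.97%, 2.63% and 4.38% of all genes.

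Other pathways gave no called gene. Notch targets had 11 of 15 positive signs with a median of 0.12. Hey2, a repressor induced by Notch, read 6.17, 6.49 and 6.91 with QKItr against 5.50 to 6.79 with eGFP and differed by 0.49 (0.17 to 0.81, unadjusted p = 0.006). Cholesterol synthesis had a median of 0.06, and its list mean differed by -0.09, 0.13 and 0.21 in pools 1, 2 and 3. Insig1, which holds back sterol synthesis, had the widest bound there, at 1.99-fold. Extracellular matrix and adhesion genes had 23 of 34 positive signs and a median of 0.09, and Ncam1, a neural adhesion molecule, differed by 0.28. In the integrated stress and unfolded protein response, with a median of 0.04, Edem1, which targets misfolded proteins, read 6.47, 6.54 and 6.43 with QKItr against 6.55 to 6.95 with eGFP, a difference of -0.29. Its groups did not overlap. Among p53 targets, with a median of -0.04, Plk2 read 10.06, 9.91 and 9.99 against 10.20 to 10.35, a difference of -0.29, again without overlap. Over all genes, 1.13% lay below eGFP without overlap. Immediate early and MAPK output genes had a median of -0.05 and 0 of 28 at an unadjusted p under 0.05.

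Over all 21 lists, 439 of 457 genes were measured and 0 were called. An unadjusted p under 0.05 was found for 18 (4.1%), against 4.6% of all genes. The interval lay within 2-fold for 430 and within 1.5-fold for 328 (74.7%), against 86.1% of all genes. The 9 that were not bounded to 2-fold were 8 interferon response genes and Fn1, which encodes fibronectin.

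**Figure D4:**
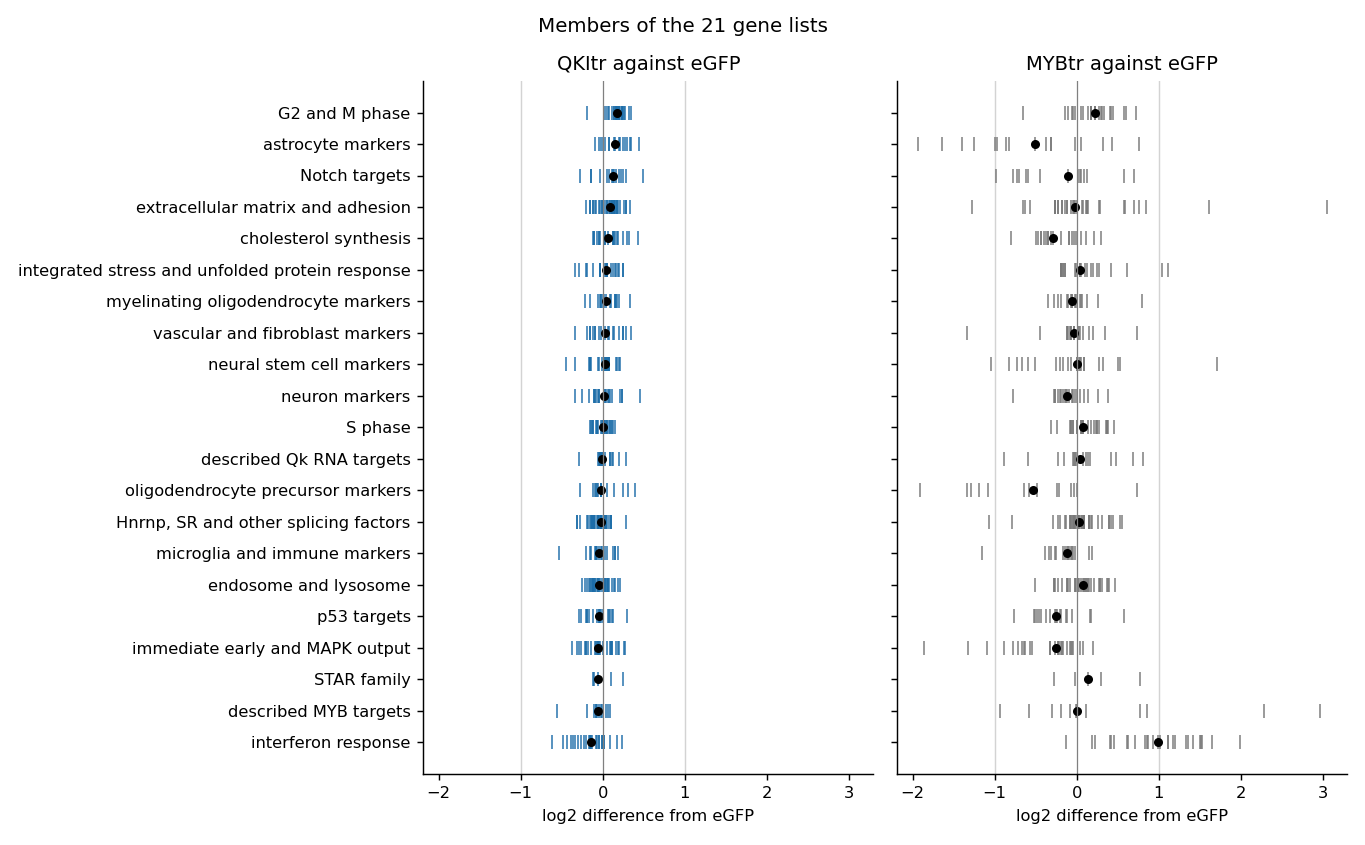
Difference from eGFP (x axis, log2) of each measured member of the 21 gene lists with QKItr (left) and MYBtr (right); ticks are genes and black dots list medians. With QKItr the list medians lie between -0.14 and 0.17, and with MYBtr the interferon response has a median of 0.99 and oligodendrocyte precursor markers one of -0.53.

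The genes chosen here for their response to the MYB constructs stayed near eGFP with QKItr. The 11 genes below had been called with every MYB construct in an earlier analysis, so their response to MYB is a matter of choice and those values are a description; QKItr and MYB values share the eGFP arrays. Kit, a receptor tyrosine kinase, differed by 0.09 with QKItr (-0.30 to 0.49) and by 2.96, 2.55 and 2.80 with MYBtr, MYBQKI5 and MYBQKI6. Prune2 differed by 0.05 (-0.42 to 0.51) with QKItr against 4.06, 2.86 and 3.60. Cdk6, a kinase of the cell cycle, differed by 0.04 (-0.38 to 0.47) against 2.28, 1.51 and 1.88. Fbxo32, a ubiquitin ligase subunit, differed by -0.21 (-0.68 to 0.26) against -2.40, -1.64 and -1.92. For the remaining 7 genes the QKItr differences were 0.08 for Zmynd10, -0.03 for Prelp, 0.04 for Fras1, -0.12 for Kif26b, -0.17 for Dgkg, -0.07 for Anks1 and -0.04 for Tmod1. Dgkg had the widest of all these bounds after Fbxo32, at 1.61-fold. None of the 11 was called with QKItr against eGFP. Other genes called with every MYB construct lay on either side of eGFP with QKItr, and their share was not counted. Klrb1a, Cd68 and Nes differed by -0.83, -0.54 and -0.45, in the direction of the MYB constructs. Lhfpl3 and Pcdh15 differed by 0.39 and 0.31, against it. Of 12 measured genes described as MYB targets, 0 were called and 3 had a positive sign. Myc had the lowest p, at -0.56 (-0.97 to -0.16, limma unadjusted p = 0.0096). It read 8.51 to 8.87 with QKItr and 9.14 to 9.29 with eGFP, without overlap, as was so on the lower side for 1.13% of all genes. MYBtr, MYBQKI5 and MYBQKI6 gave -0.93, -0.62 and -0.94 for Myc against the same eGFP arrays, called with MYBtr and MYBQKI6.

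Myb itself read 4.60, 4.64 and 5.34 with QKItr and 4.07 to 5.29 with eGFP, a difference of 0.24 (-0.20 to 0.68, exact paired permutation p = 0.25). Its brightest probe set, 17239679, read 7.73, 7.03 and 7.55 with QKItr and 6.18 to 7.38 with eGFP. That difference of 0.78 (0.17 to 1.39, unadjusted p = 0.017, limma adjusted p = 1.00) was not called, and the MYB constructs raised the same probe set by 5.72, 5.65 and 5.72.

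The genes of smallest p are given for follow-up, and none of them was called. Nfil3, a transcription factor of the circadian clock and of immune cells, read 6.91, 6.88 and 6.96 with QKItr against 6.31 to 6.59 with eGFP, a difference of 0.49 (0.25 to 0.74, unadjusted p = 0.00071). The groups did not overlap, as was so on the higher side for 229 (0.99%) of all genes. The MYB constructs gave 0.58, 0.43 and 0.54 against the same eGFP arrays, called with MYBtr and MYBQKI6. Eif4e1b, a cap-binding protein of germ cells, read 3.98, 3.91 and 3.79 against 3.31 to 3.46 but was dim, at the 19.3rd percentile of signal. Its difference was 0.50, against 0.05, -0.15 and 0.16 with the MYB constructs, and QKItr differed from MYBtr by 0.45 (adjusted p = 0.034), from MYBQKI5 by 0.65 (0.010) and from MYBQKI6 by 0.34 (0.12, not called). These comparisons share the QKItr arrays by which the gene was chosen. The other 8 on the higher side were Krtap19-9b, Cpxm1, Slc39a12, Paqr6, Itih3, Tekt5, Pramel27 and Clec10a, with differences of 0.37 to 0.70.

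On the lower side, Ccnyl1, a cyclin Y relative, read 5.99, 5.98 and 5.80 with QKItr against 6.41 to 6.76 with eGFP, a difference of -0.64 (-0.92 to -0.37, unadjusted p = 0.00018). Every QKItr array lay below every eGFP array, and MYBQKI5 gave -0.51 and was called. Rpf2, a ribosome assembly factor, read 7.01, 6.84 and 6.94 against 7.12 to 7.68, a difference of -0.44. Ippk, which makes inositol hexakisphosphate, read 5.14, 5.18 and 5.02 against 5.21 to 5.86, a difference of -0.42. Rex2, with 3 probe sets and a signal at the 5.26th percentile, differed by -1.10, -1.18 and -0.81 in the 3 pools. The MYB constructs gave -0.70, -0.63 and -0.78 against the same eGFP arrays, called with MYBQKI6 alone, and QKItr was not called different from any of them (adjusted p = 0.37 to 0.58). The other 6 were Fhl5, Klrb1a, Pepd, Ccdc86, Spty2d1 and Lrrn3, with differences of -0.50 to -0.83. Set directly against the MYB constructs, Pepd, Spty2d1 and Lrrn3 were called lower with QKItr than with each. Fhl5 was called against MYBtr alone, and Klrb1a and Ccdc86 against none. With MYBtr, MYBQKI5 and MYBQKI6, Pepd differed from eGFP by 0.04, 0.01 and 0.14. These comparisons share the QKItr arrays by which the genes were chosen. Of all genes, the 3 QKItr arrays lay above all 6 eGFP arrays in 229 (0.99%) and below them in 261 (1.13%).

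A fitted difference over 2-fold was found in 6 genes, chosen after their values were seen. Gm10634, Prp2, Styx, Trim34b and Xlr4c were higher by 1.28, 1.26, 1.19, 1.03 and 1.03, each read by 1 probe set, and Rex2 lower by -1.03. All had an adjusted p of 0.99.

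At the level of single probe sets, 6 of 269751 (0.00222%) were called, all of them lower with QKItr. The fit called 1437 (0.533%) with MYBtr, 318 (0.118%) with MYBQKI5 and 811 (0.301%) with MYBQKI6. At an unadjusted p under 0.05 there were 10984 probe sets (4.07%), 4902 higher (1.82%) and 6082 lower (2.25%). Of the 6, 5 named no gene. Probe set 17549015 read 13.23 to 13.66 on the 6 eGFP arrays and 6.93, 6.36 and 6.45 with QKItr, a difference of -6.90 (SE 0.18, limma adjusted p = 5.9e-08). Probe sets 17549137 and 17549149 held the same values on every array and add nothing to it. Probe sets 17549067 and 17549073 differed by -6.39 and -6.21. The sixth named Flnc, which encodes filamin C, an actin cross-linker: 17456660 read 9.57 to 11.57 with eGFP and 5.56, 4.29 and 5.49 with QKItr, a difference of -5.60 (SE 0.52, adjusted p = 0.019). No probe set here was shown to be above background on the QKItr arrays, so no fold is given for the 6. The call on this probe set was lost without QKItr pool 1 (adjusted p = 0.069), QKItr pool 2 (0.068), eGFP pool 1 (0.27) or eGFP pool 2 (0.23), and without any whole pool (1.00, 1.00 and 0.32). In a fit of the 6 QKItr and eGFP columns alone, with the pool block, none of the 6 was called (adjusted p = 0.081 for the unnamed ones and 0.87 for Flnc).

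These 6 marked the eGFP arrays rather than the QKItr arrays. They were the only probe sets over 2 log2 units higher on all 6 eGFP arrays than on all 12 arrays of the other constructs, and 0 were lower by as much. With the MYB constructs 17456660 stood at -6.62, -5.97 and -5.85 from eGFP, as low as with QKItr. The other 37 Flnc probe sets had a median difference of 0.12, and the gene as a whole differed by 0.02 (-0.25 to 0.29). Whether these probe sets read the eGFP transgene was not tested. All 6 arrays labelled eGFP, and none of the 12 others, were high.

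**Figure D5:**
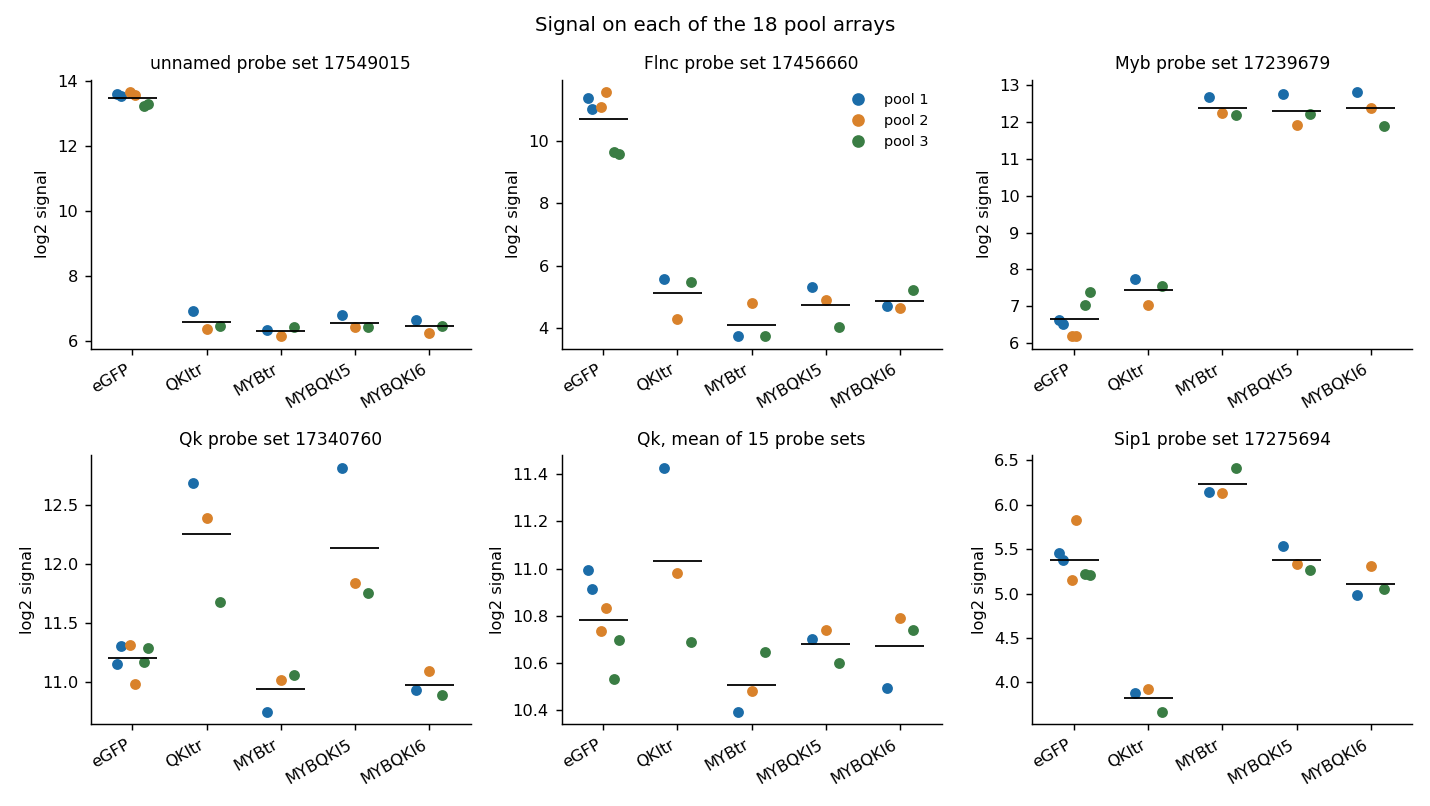
Log2 signal (y axis, a scale of its own in each panel) of 5 probe sets and of the Qk mean on each of the 18 pool arrays, by construct (x axis); colours are pools and bars are group means. Probe set 17549015 and Flnc 17456660 are high on the eGFP arrays alone, Myb 17239679 on the MYB constructs alone, Qk 17340760 with QKItr and MYBQKI5, and Sip1 17275694 is lowest on the 3 QKItr arrays.

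Single probe sets set apart on the QKItr arrays by more than 1 log2 unit were few. The 3 QKItr arrays lay above all 15 other pool arrays in 400 probe sets (0.148%) and below them in 496 (0.184%). None did so by more than 1 log2 unit above, and 3 did so below, named here after their values were seen, so that the p-values below are a description. Probe set 17275694 read 3.89, 3.92 and 3.66 with QKItr and 5.15 to 5.83 with eGFP, a difference of -1.55 (-1.93 to -1.17). Against eGFP it was not called (limma adjusted p = 0.099), and against MYBtr, MYBQKI5 and MYBQKI6 it was (0.00055, 0.0090 and 0.013). Its symbol, Sip1, is an older name of more than one gene. Atg2a, an autophagy protein, at 17356714 read 2.89, 2.90 and 3.10 with QKItr and 4.36 to 6.24 with eGFP (adjusted p = 0.66). Plekha7, a junction protein, at 17495375 read 3.23, 3.02 and 3.66 against 4.70 to 5.61 (adjusted p = 0.67). Both were called against each MYB construct. Over all probe sets, QKItr differed directly from MYBtr in 3441 (1.28%), from MYBQKI5 in 489 (0.181%) and from MYBQKI6 in 2007 (0.744%). The remaining probe sets of these genes had medians of -0.25, -0.22 and 0.01.

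A gap of more than 1 log2 unit between the QKItr and the eGFP arrays was found for 10 probe sets higher (0.00371%) and 28 lower (0.0104%). Of these 38, 31 had an eGFP median below 6, where signals were dim. Among named probe sets of smallest p on the higher side, Helz 17257704 differed by 2.47 while its other 35 probe sets had a median of -0.03. Adcy5 17325207, for an adenylate cyclase, differed by 1.85 against a median of -0.21 for the other 14. For the other 3 of the 5, the remaining probe sets of the gene had positive medians, of 0.26 to 0.42. Among these, Dgkb, a diacylglycerol kinase, had 17275094 at 7.37, 7.00 and 6.60 with QKItr against 4.45 to 6.79 with eGFP, a difference of 1.22 (0.80 to 1.63). Of its other 24 probe sets 23 were positive, with a median of 0.42, and the gene as a whole differed by 0.47 (0.08 to 0.85, unadjusted p = 0.020, adjusted p = 0.99).

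On the lower side, Enam 17438781 differed by -2.85 (adjusted p = 0.64), and the MYB constructs gave -2.98, -2.68 and -2.74, each called. The other 10 Enam probe sets had a median of 0.20. Pi16 17335516 differed by -1.99, and the MYB constructs by -2.81, -2.67 and -2.78, each called. For both, eGFP was the group that stood apart. Pomgnt1 17417379, for an enzyme of protein O-mannosylation, differed by -2.19 with QKItr and by 0.09, -0.37 and -0.17 with MYBtr, MYBQKI5 and MYBQKI6, and its other 21 probe sets had a median of -0.12.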

How the data were processed

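Per the labels' protocols, total RNA was labelled with biotin and hybridised by the standard Affymetrix procedure. Deposited values run from 0.22 to 14.6 and are taken as log2 signal; how the authors normalized them is not given in the sources used here. Of 269751 probe sets, 233753 named 1 symbol, 5106 several and 30892 none, by the platform annotation. A gene was the mean of the probe sets that named it alone (median 8); 2208 symbols were updated and 69 were not matched, through RefSeq (GRCm38.p6). No filter on dim signal was set.

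Each pool's 2 eGFP arrays were averaged, and the 15 columns of the 5 constructs were fitted in limma 3.58.1 (R 4.3.3, data.table version 1.17.8) with construct and pool as terms, so that the replicate block is part of the main test. Called means a Benjamini-Hochberg adjusted p under 0.05 over all features. The rule pairs samples by pool, and arrays of 1 pool were alike: same-pool correlations after removal of group means ran from 0.31 to 0.72 (30 pairs, median 0.53), against a median of -0.23 for 60 other pairs. The negative median follows in part from removing group means over 3 pools. Array number limits the precision. The members, lists and tests were chosen with earlier results of these data known. Genes were named if called with 1 direction in 3 pools, filled up to 10 per direction by smallest p, with up to 3 members of each list, Qk, Myb, 11 MYB-response genes and 5 probe sets per direction; some list members and named probe sets are not reported here. Predicted, clone, small RNA and receptor names of smell were left out of the 10. The fit was tested on simulated data. Alternatives changed the block, the samples fitted, the eGFP repeat, scaling, dim filter, gene summary and variance trend, and left out each pool. Suppression arrays were not analysed here. Figures used matplotlib 3.10.9 under Python 3.11.15.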

Additional observations from a re-analysis of the deposited data

Results flagged for a closer look

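Among 23 genes and probe sets checked for an array that stands far from the others of its group, 1 stood out. Qk probe set 17340762 read 4.78 on the pool 3 eGFP array R1, while the other 5 eGFP arrays read 6.81 to 7.49. The gap took 0.751 of the group's whole range, above the critical value of 0.625 for 6 arrays. Chance passes that critical value in about 1 in 20 groups of 6 independent values. The eGFP arrays are repeats within pools, so the rate is only a guide. The difference of 0.63 between QKItr and eGFP at this probe set, with an interval of -0.48 to 1.73, includes that array.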

How the results depend on the processing

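Genes called stayed at 0 under all 20 alternatives, with 362 to 1776 genes at an unadjusted p under 0.05. Without the replicate block, 0 genes and the same 6 probe sets were called, and 362 genes had an unadjusted p under 0.05 against 1064 with it. With only the 6 columns of QKItr and eGFP and the replicate block, 1776 genes had an unadjusted p under 0.05, and 0 probe sets were called. The 5 unnamed ones had an adjusted p of 0.081 there, and they were called in the other 17 alternatives for probe sets. Flnc probe set 17456660 was called in 9 of 18, with differences of -6.34 to -4.88. The Sip1 probe set 17275694 passed with dim features left out (adjusted p = 0.049). The median half-width of the interval went from 0.30 to 0.41 with the median of a gene's probe sets and to 0.44 with the brightest one, and the sign of Dcx turned to -0.14 with the latter. The cause was not tested. Genes bounded to 2-fold ranged from 17222, where 17356 were tested, to 23034. Qk kept its direction, from 0.04 to 0.42, and Myb too, from 0.10 to 0.78.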
